A study of Mus musculus with 15 samples.

Results

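The transcription factors examined here are 9 genes that set or restrain the myeloid and osteoclast lineages: *Spi1*, *Cebpa*, *Cebpb*, *Cebpd*, *Mitf*, *Tfec*, *Maf*, *Bcl6* and *Prdm1*. They were taken by gene name, 9 of the 20089 gene entries analysed, and all 9 passed the filter on low values that left 11743 genes for testing. RNA-seq was done on wild-type C57BL/6 bone marrow-derived macrophages (BMDMs), precursors grown in M-CSF that all 5 groups shared. Each group had 3 samples: Control cells with M-CSF alone, and cells that also received RANKL, the cytokine that drives osteoclast formation, or LPS, a bacterial cell wall component, each at 100 ng/mL, for 4 h or 72 h. Mice for BMDM culture were 4 to 8 weeks old, an age the methods give for the wild-type and knockout Zmat1 mice of the study and not separately for these samples. No cells kept in M-CSF alone for 72 h were analysed, so that at 72 h the stimulus and the time in culture cannot be told apart. Nothing stated that the 3 samples of a group came from separate animals or cultures, and the p-values measure only the spread between these samples.

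PU.1, the product of *Spi1*, and the C/EBP proteins bind enhancers of myeloid genes and are required to make monocytes, macrophages and granulocytes. On the way to the osteoclast, PU.1 acts together with MITF on genes of bone resorption, while the repressor BCL6 holds the osteoclast programme back. Blimp1, the repressor encoded by *Prdm1*, is induced by RANKL through NFATc1 and silences such inhibitors, among them *Irf8* and *Bcl6*.

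Between 18306184 and 20330207 fragments lay on listed genes in each sample, and fragments were recovered from the FPKM values (fragments scaled to exon length and sequencing depth). The 7 macrophage markers were all present, with summed levels of 7317 to 9041 FPKM in Control, 7205 to 8584 in RANKL 4 h, 5357 to 6466 in LPS 4 h, 10830 to 16170 in RANKL 72 h and 5797 to 17150 in LPS 72 h. The 9 neutrophil and precursor markers summed to 7912 to 24340 FPKM in Control, 7512 to 21790 in RANKL 4 h, 6667 to 21330 in LPS 4 h, 1849 to 7451 in RANKL 72 h and 151.6 to 1816 in LPS 72 h. *Calcr* was at 0 in all Control and RANKL 4 h samples, *Siglech* and *Fcer1a* in all LPS 72 h samples, and *Hbb-bs* in all Control and RANKL 72 h samples. Erythroid markers reached at most 14.6 FPKM, dendritic cell markers 41.95, T and NK cell markers 33.85, B and plasma cell markers 55.13 and basophil and mast cell markers 70.24 in any sample. LPS 72 h replicate 3 stood apart from its group: macrophage markers summed to 17150 FPKM against 5797 and 7629 in the other 2 samples, stromal markers to 699.7 against 171.4 and 211.3, and neutrophil markers to 1816 against 186.3 and 151.6. Results for LPS 72 h are therefore given with and without it where it changed a call. In bulk RNA, fewer cells of a type and less RNA per cell cannot be told apart.

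The 9 factors spanned a wide range of levels, and their order across the 5 groups differed from gene to gene. In Control, *Spi1* was highest at 177.9 ± 12.69 FPKM (SD, n = 3) and *Prdm1* lowest at 1.228 ± 0.2294. *Cebpb*, *Maf* and *Cebpa* lay between 76.91 and 121.6 FPKM on average in Control, and *Cebpd*, *Mitf*, *Tfec* and *Bcl6* between 9.725 and 12.76. The highest group mean exceeded the lowest by 1.484-fold for *Spi1* and by 15.48-fold for *Cebpa*, with *Cebpb* at 8.095-fold and *Prdm1* at 6.466-fold. For the other 5 factors this ratio lay between 2.391 (*Maf*) and 4.319 (*Cebpd*). A change is counted below where the fold on FPKM + 0.1 was above 1.5 or below 0.66 with an unadjusted p under 0.05 in limma, and adjusted p-values are Benjamini-Hochberg values over all 11743 genes.

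**Figure D1:**
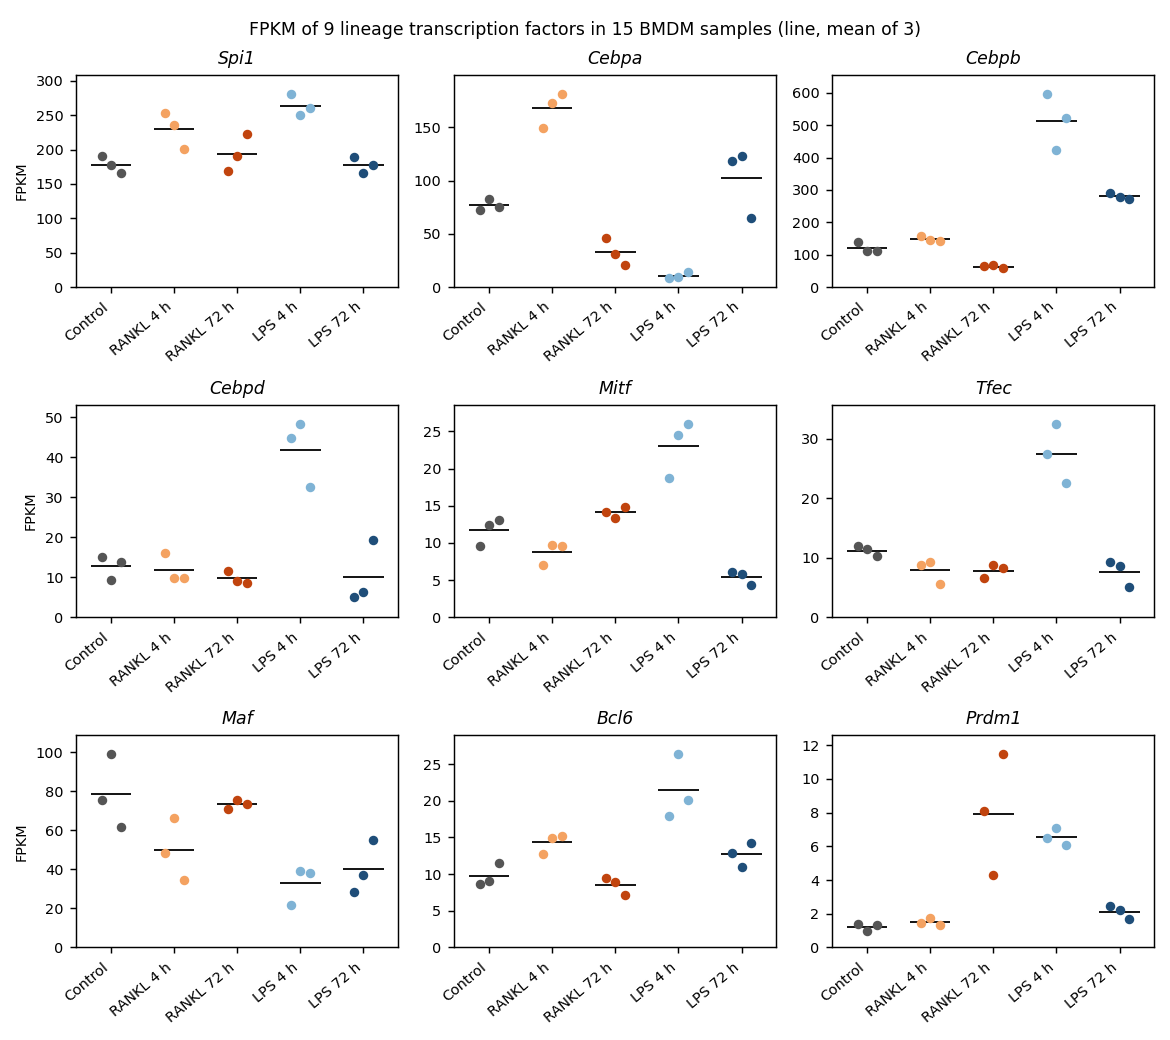
FPKM of each of the 9 factors in the 15 samples, by group (points, samples; line, mean of 3). Spi1 stays between 165.3 and 280.9 FPKM throughout, while Cebpa drops to between 8.841 and 14.43 in LPS 4 h and Prdm1 is highest in RANKL 72 h and LPS 4 h.

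*Spi1*, which encodes PU.1, kept a high level in every condition. It lies on chromosome 2 from 91082390 to 91115756 on the plus strand of GRCm38. Its FPKM in replicates 1 to 3 was 190.7, 177.8 and 165.3 in Control, 253, 235 and 200.3 in RANKL 4 h, and 169.1, 190.3 and 222 in RANKL 72 h. LPS gave 280.9, 249.8 and 260.1 FPKM at 4 h and 188.6, 166.5 and 177.8 at 72 h. All LPS 4 h samples lay above all Control samples, and so did all RANKL 4 h samples, whereas both 72 h groups overlapped with Control. The log2 difference from Control was 0.57 (SE 0.124) in LPS 4 h, with a limma adjusted p of 0.00145, but the fold of 1.48 stayed below the threshold. In LPS 4 h the median of all tested genes lay at -0.52 on the log2 scale, and once samples were centred on their median gene the *Spi1* difference became 1.13 and counted as changed. RANKL 4 h differed by 0.36 (limma adjusted p 0.614). No neighbouring pair in the order LPS 4 h, RANKL 4 h, RANKL 72 h, Control, LPS 72 h was free of overlap.

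The relatives of PU.1 changed in several groups. *Spib*, a B cell and dendritic cell factor of the same ETS subfamily, fell to 0.3421 FPKM on average in RANKL 72 h and 0.03091 in LPS 72 h from 3.087 in Control. *Spic*, the factor of red pulp macrophages, had a log2 difference from Control of -1.42 in RANKL 72 h (limma adjusted p 0.000838) and of 1.33 in LPS 4 h (0.000386). Of 5 genes known as PU.1 targets in myeloid cells, 2 rose in RANKL 72 h, namely the M-CSF receptor gene *Csf1r* by 0.71 and the RANKL receptor gene *Tnfrsf11a* by 0.79 on the log2 scale, and *Csf3r* fell. *Tnfrsf11a* was the single one of the 5 to change in LPS 72 h, with a log2 difference of -0.92, and none changed in either 4 h group.

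The 3 C/EBP genes answered in different directions. *Cebpa*, the factor of the granulocyte and monocyte branch, rose 2.18-fold in RANKL 4 h, fell in RANKL 72 h and dropped to 0.139 of its Control level in LPS 4 h, where *Cebpb* and *Cebpd*, the inducible members of inflammation and acute-phase genes, rose. *Cebpa* lies on chromosome 7 from 35119293 to 35121928 and *Cebpb* on chromosome 2 from 167688915 to 167690418, both on the plus strand, and *Cebpd* on chromosome 16 from 15887286 to 15891031, also on the plus strand.

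For *Cebpa* the replicates gave 72.78, 82.52 and 75.43 FPKM in Control, 149.6, 172.9 and 181.4 in RANKL 4 h, and 46.54, 31.51 and 21.1 in RANKL 72 h. In LPS they gave 8.841, 9.281 and 14.43 FPKM at 4 h and 118.8, 123.5 and 64.86 at 72 h. The RANKL 4 h samples were the highest of all 15, the LPS 4 h samples the lowest, and the RANKL 72 h samples lay between LPS 4 h and Control without overlap with either. Against Control the log2 difference was 1.12 (SE 0.283) in RANKL 4 h, which counted as changed at an unadjusted p of 0.00144 but not after adjustment (limma adjusted p 0.249). Without LPS 72 h replicate 3, which enters the shared estimate of spread, this adjusted p in limma was 0.124. RANKL 72 h differed by -1.29 (limma adjusted p 0.00427) and LPS 4 h by -2.85 (2.38e-06). In LPS 72 h, replicates 1 and 2 lay above all Control samples and replicate 3 below them, and the difference of 0.36 (limma adjusted p 0.346) became 0.66 without replicate 3, at an unadjusted p of 0.0305, and was then counted as changed.

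*Cebpb* separated the 5 groups completely, in the order LPS 4 h, LPS 72 h, RANKL 4 h, Control, RANKL 72 h. Its FPKM was 139.5, 112.2 and 113 in Control, 157.6, 144.1 and 141.6 in RANKL 4 h, and 65.13, 66.77 and 58.7 in RANKL 72 h. The LPS samples reached 597, 424.4 and 521.4 FPKM at 4 h and 289.6, 279.4 and 273.2 at 72 h. The rise was 2.07 (SE 0.13) on the log2 scale in LPS 4 h (limma adjusted p 3.97e-08) and 1.21 in LPS 72 h (2.18e-05). RANKL 72 h fell below Control, with a log2 difference of -0.93 (limma adjusted p 0.000205), and RANKL 4 h differed by 0.29 (0.966), below the fold threshold.

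*Cebpd* rose in LPS 4 h and in no other group. Control samples had 15.08, 9.298 and 13.89 FPKM, RANKL 4 h samples 16.06, 9.924 and 9.702, and RANKL 72 h samples 11.58, 8.995 and 8.547. LPS 4 h samples had 44.85, 48.29 and 32.65 FPKM and LPS 72 h samples 5.091, 6.207 and 19.21. Only the LPS 4 h samples stood clear of Control, with a log2 difference of 1.72 (SE 0.389, limma adjusted p 0.00183). The LPS 72 h group was split: replicates 1 and 2 lay below all Control samples and replicate 3 above them, and the log2 difference of -0.55 (limma adjusted p 0.287) became -1.14 without replicate 3, at an unadjusted p of 0.0009.

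Within a sample, the ratio of *Cebpa* to *Cebpb* FPKM summed up these opposite moves. It was 0.522, 0.735 and 0.667 in Control and 0.949, 1.2 and 1.28 in RANKL 4 h, with every RANKL 4 h sample above every Control sample. It was 0.715, 0.472 and 0.359 in RANKL 72 h, which overlapped with Control. In LPS 4 h the ratio was 0.0148, 0.0219 and 0.0277, and in LPS 72 h it was 0.41, 0.442 and 0.237, both below every Control sample.

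Other C/EBP family members did not follow a single course. *Cebpe*, a factor of late granulocyte maturation, had log2 differences from Control of -2.03 in RANKL 72 h (limma adjusted p 0.0039), -1.20 in LPS 4 h (0.0293) and -3.57 in LPS 72 h (5.77e-05). Neutrophil markers moved with it in both 72 h groups: 5 of 9 were lower in RANKL 72 h and 9 of 9 in LPS 72 h, and their part in the *Cebpa* and *Cebpe* values was not tested. *Ddit3*, the stress-induced member CHOP, fell in RANKL 72 h (-1.97) and LPS 4 h (-0.92) and rose in LPS 72 h (0.93), and *Cebpg* fell in LPS 4 h (-1.47). These falls in LPS 4 h stand beside a median of -0.52 over all tested genes. Of 9 C/EBP targets of macrophages, 5 rose and none fell in LPS 4 h, among them *Il6* by 8.74 and *Csf3*, the gene of G-CSF, by 6.47 on the log2 scale. In RANKL 72 h, 5 of the 9 fell (*Hp*, *Il6*, *Lcn2*, *Saa3*, *Csf3r*) and the arginase gene *Arg1* rose by 2.73. In LPS 72 h, 5 rose (*Arg1*, *Csf3*, *Il6*, *Ptgs2*, *Saa3*) and *Hp* fell, while none changed in RANKL 4 h. *Lcn2* had 1115, 315 and 1072 FPKM in Control and 433.8, 240.2 and 110.3 in RANKL 72 h. The neutrophil marker *Camp* had 1241, 264.6 and 900.7 FPKM in Control and 379.1, 178.9 and 61.35 in RANKL 72 h. The part of neutrophils and their precursors in the values of these 9 targets was not tested either.

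*Mitf* and *Tfec*, 2 members of the MiT family of basic helix-loop-helix leucine zipper factors, both rose in LPS 4 h, and *Mitf* fell in LPS 72 h. *Mitf* lies on chromosome 6 from 97807052 to 98021349 on the plus strand, with 8 annotated transcripts, and *Tfec* on chromosome 6 from 16833373 to 16898441 on the minus strand. The deposited table gives 1 entry per gene, and isoforms were not told apart.

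*Mitf* had 9.546, 12.48 and 13.1 FPKM in Control, 6.986, 9.677 and 9.541 in RANKL 4 h, and 14.22, 13.33 and 14.83 in RANKL 72 h. LPS samples had 18.8, 24.51 and 25.99 FPKM at 4 h and 6.04, 5.787 and 4.352 at 72 h. The LPS 4 h samples were the highest and the LPS 72 h samples the lowest of all 15. LPS 4 h differed from Control by 0.97 (SE 0.18, limma adjusted p 0.000418) and LPS 72 h by -1.10 (0.000432) on the log2 scale. All 3 RANKL 72 h samples lay above all Control samples, but by a log2 difference of 0.28 (limma adjusted p 0.251), which became 0.06 with samples centred on their median gene. RANKL 4 h differed from Control by -0.42 (limma adjusted p 0.913). These groups overlapped, but RANKL 4 h lay lower in all 3 same-numbered pairs (-0.45, -0.36 and -0.45). With the replicate block over all 15 samples, LPS 72 h included, the limma adjusted p was 0.629.

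*Tfec* had 11.92, 11.43 and 10.26 FPKM in Control, 8.712, 9.297 and 5.644 in RANKL 4 h, and 6.523, 8.796 and 8.222 in RANKL 72 h. LPS samples had 27.46, 32.48 and 22.65 FPKM at 4 h and 9.287, 8.651 and 5.146 at 72 h. Only LPS 4 h was higher than Control, by 1.28 (SE 0.234) on the log2 scale (limma adjusted p 0.000393). The other 3 groups all lay below Control without overlap, at log2 differences of -0.53 (RANKL 4 h, limma adjusted p 0.956), -0.52 (RANKL 72 h, 0.108) and -0.58 (LPS 72 h, 0.0686), and none passed the fold threshold. With samples centred on their median gene, RANKL 72 h (-0.74) and LPS 72 h (-0.66) passed it. Without LPS 72 h replicate 3, the lowest of its group, the LPS 72 h difference shrank to -0.32 (limma adjusted p 0.242).

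The ratio of *Mitf* to *Tfec* FPKM was 0.801, 1.09 and 1.28 in Control and 2.18, 1.52 and 1.8 in RANKL 72 h, where every sample exceeded every Control sample. It was 0.802, 1.04 and 1.69 in RANKL 4 h, 0.685, 0.754 and 1.15 in LPS 4 h, and 0.65, 0.669 and 0.846 in LPS 72 h, each overlapping with Control. The other 2 members of the family, *Tfe3* and *Tfeb*, regulators of lysosome genes, were each measured too. *Tfe3* differed from Control by -0.17 to 0.43 on the log2 scale and was not counted as changed in any group, whereas *Tfeb* fell in LPS 4 h (log2 difference -2.92, limma adjusted p 2e-08) and in LPS 72 h (-0.76, 0.00363). Of 6 osteoclast genes known as targets of PU.1 and MITF, *Acp5* (3.33), *Ctsk* (5.38) and *Oscar* (7.86) rose in RANKL 72 h on the log2 scale, and *Clcn7*, *Ostm1* and *Atp6v0d2* did not change. None of the 6 changed in RANKL 4 h. In LPS 4 h, *Acp5* rose and *Ostm1* and *Atp6v0d2* fell, and in LPS 72 h, *Ctsk* rose and *Atp6v0d2* fell.

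**Figure D2:**
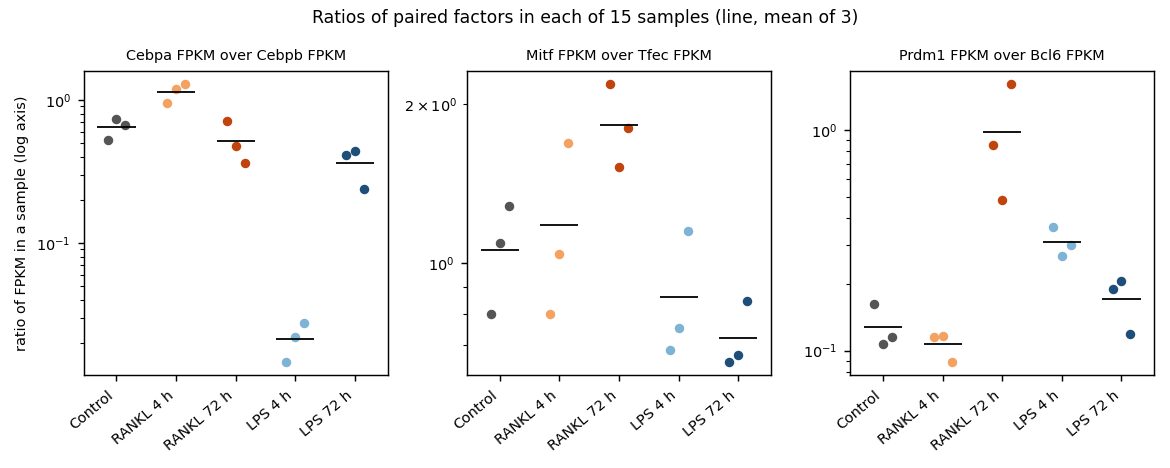
Ratios of FPKM within each of the 15 samples, on a log axis, for Cebpa over Cebpb, Mitf over Tfec and Prdm1 over Bcl6 (points, samples; line, mean of 3). Cebpa over Cebpb is lowest in LPS 4 h, at 0.0148 to 0.0277, while Mitf over Tfec and Prdm1 over Bcl6 lie above every Control sample in RANKL 72 h.

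*Maf*, which encodes c-MAF, a basic leucine zipper factor of resident macrophages and of *Il10* expression, fell under LPS at both times. The gene lies on chromosome 8 from 115682942 to 115707794 on the minus strand. Control samples had 75.47, 98.85 and 61.64 FPKM, RANKL 4 h samples 48.51, 66.03 and 34.74, and RANKL 72 h samples 70.95, 75.25 and 73.54. LPS 4 h samples had 21.53, 39.11 and 38.05 FPKM and LPS 72 h samples 28.42, 36.88 and 55. Every LPS sample lay below every Control sample. The log2 difference from Control was -1.28 (SE 0.287) in LPS 4 h (limma adjusted p 0.00174). LPS 72 h fell to 0.501 of Control (limma adjusted p 0.0158). RANKL 72 h overlapped with Control and differed by -0.08 (limma adjusted p 0.862). RANKL 4 h differed by -0.68 at an unadjusted p of 0.0328, which counted as a fall, with a limma adjusted p of 0.901. The groups overlapped, but within the 3 same-numbered pairs RANKL 4 h lay lower each time, by log2 differences of -0.64, -0.58 and -0.83. With the replicate block over all 15 samples, LPS 72 h included, the unadjusted limma p was 0.0221 and the limma adjusted p 0.559. Without the block the call was lost without Control replicate 1 or 2 or RANKL 4 h replicate 1 or 3.

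Among the small MAF proteins, which lack an activation domain, *Maff* rose in all 4 groups against Control, by 4.11 on the log2 scale in LPS 4 h and by 0.91 to 1.91 in the others. These calls use unadjusted p-values. In RANKL 4 h *Maff* had 2.35, 2.322 and 2.468 FPKM against 2.012, 1.022 and 0.8641 in Control. With adjusted p-values 0.119% of all genes were counted in that comparison. *Mafk* rose in LPS 4 h (1.20) and fell in RANKL 72 h (-1.08). *Mafg* fell in LPS 4 h (-0.60), where the median of all tested genes lay at -0.52. *Il10*, the anti-inflammatory cytokine gene that c-MAF activates, had 226.1, 184.2 and 169.3 FPKM in LPS 4 h, where *Maf* was low, against 5.703, 4.741 and 2.717 in Control. Its log2 difference was 5.48 in LPS 4 h (limma adjusted p 2.6e-08), -1.17 in RANKL 72 h and 0.02 in LPS 72 h. Of the complement genes *C1qa*, *C1qb* and *C1qc*, counted with *Il10* as c-MAF targets, *C1qb* and *C1qc* fell in LPS 72 h and no other change was counted, nor did any of the 4 targets change in RANKL 4 h.

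*Bcl6* and *Prdm1* encode repressors of opposite roles: BCL6 holds down *Nfatc1*, *Dcstamp* and *Ctsk* in osteoclast precursors, and Blimp1 releases that brake by repressing *Bcl6*. The 250 bases before their RefSeq start sites are shown because both genes rose in LPS 4 h, while *Prdm1* but not *Bcl6* was counted as higher in RANKL 72 h. They come from the RefSeq table of GRCm38.p6, 5′ to 3′ on the minus strand, in lower case with searched motifs in capitals. The *Prdm1* window is chr10:44458749-44458998, inside the span of the gene, and the *Bcl6* windows are chr16:23988853-23989102, just before the gene, and chr16:23981284-23981533, inside it. No annotated exon overlaps these 3 windows.
Prdm1: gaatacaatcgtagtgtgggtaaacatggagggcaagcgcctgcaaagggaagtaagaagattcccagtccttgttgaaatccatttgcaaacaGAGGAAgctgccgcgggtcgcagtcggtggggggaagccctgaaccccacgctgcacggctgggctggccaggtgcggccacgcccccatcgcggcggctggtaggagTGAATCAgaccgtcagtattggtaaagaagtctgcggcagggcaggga
Bcl6, first start: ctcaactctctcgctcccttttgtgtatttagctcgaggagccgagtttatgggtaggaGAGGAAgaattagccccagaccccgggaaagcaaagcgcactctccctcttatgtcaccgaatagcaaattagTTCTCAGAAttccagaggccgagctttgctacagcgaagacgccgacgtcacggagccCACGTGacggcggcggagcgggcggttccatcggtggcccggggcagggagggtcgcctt
Bcl6, second start: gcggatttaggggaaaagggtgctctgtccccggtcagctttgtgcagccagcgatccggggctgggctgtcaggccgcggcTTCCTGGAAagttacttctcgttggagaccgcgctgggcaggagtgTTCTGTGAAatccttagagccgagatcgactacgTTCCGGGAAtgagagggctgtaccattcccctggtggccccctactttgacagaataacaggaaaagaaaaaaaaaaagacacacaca
The capitals in the *Prdm1* window are a PU.1 motif (GAGGAA) from -156 to -151 and an AP-1 motif (TGANTCA) from -48 to -42, counted from the start site. In the first *Bcl6* window they are a PU.1 motif from -191 to -186, a STAT motif (TTCNNNGAA) from -118 to -110 and the E-box CACGTG, bound by MITF family proteins, from -60 to -55. In the second they are a BCL6 motif (TTCCTNGAA), which is also a STAT match, from -168 to -160, and STAT motifs from -122 to -114 and from -88 to -80. On both strands, 23.3% of 32851 RefSeq promoter windows of this length held the PU.1 motif, 6.75% the AP-1 motif, 7.02% the STAT motif, 6.02% the CACGTG E-box and 1.31% the BCL6 motif. The Blimp1 motif, found in 0.941% of windows, matched in none of the 9 windows of 6 factors in the table, and the E-box CATGTG (12.3%) matched in none either. Of the 3 *Mitf* windows, 1 held a C/EBP motif (TTGCNNAA, 9.56%) and the MARE core TGCTGAC (3.81%), 1 a κB motif (7.25%) and the MARE core, and 1 none, and *Cebpa*, *Cebpb* and *Tfec* had no match. A match is a string of letters and not a measured site.

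*Bcl6* rose in LPS 4 h. The gene lies on chromosome 16 from 23965052 to 23988852 on the minus strand. Its FPKM was 8.633, 9.025 and 11.52 in Control, 12.76, 14.96 and 15.21 in RANKL 4 h, and 9.44, 8.875 and 7.114 in RANKL 72 h. LPS samples had 17.86, 26.33 and 20.1 FPKM at 4 h and 12.83, 10.9 and 14.3 at 72 h. All samples of both 4 h groups lay above all Control samples, and both 72 h groups overlapped with Control. The log2 difference from Control was 1.12 (SE 0.172, limma adjusted p 9.26e-05) in LPS 4 h. RANKL 4 h differed by 0.56 (limma adjusted p 0.466), just under the fold threshold, RANKL 72 h by -0.19 (0.41) and LPS 72 h by 0.38 (0.0989).

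*Prdm1* was the factor with the largest rise in RANKL 72 h among the 9, from a low base. It lies on chromosome 10 from 44437177 to 44528501 on the minus strand. Control samples had 1.397, 0.9669 and 1.319 FPKM, from 171 to 249 fragments, and RANKL 4 h samples 1.472, 1.754 and 1.357. RANKL 72 h samples had 8.078, 4.284 and 11.46 FPKM, from 729 to 1919 fragments. LPS samples had 6.494, 7.072 and 6.055 FPKM at 4 h and 2.44, 2.247 and 1.696 at 72 h. Every RANKL 72 h and LPS 4 h sample lay above every other sample, and those 2 groups overlapped with each other. The log2 difference from Control was 2.50 (SE 0.283, limma adjusted p 4.3e-05) in RANKL 72 h, 2.33 (1.39e-05) in LPS 4 h and 0.30 (1) in RANKL 4 h. LPS 72 h lay above Control without overlap, by 0.75, and was counted as higher at an unadjusted p of 0.0198 but not after adjustment (limma adjusted p 0.0541). That call was also lost without Control replicate 2, without LPS 72 h replicate 1 or 2, and with a pseudocount of 1. Without LPS 72 h replicate 3 the LPS 72 h difference was 0.89 and held after adjustment (limma adjusted p 0.0331).

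The ratio of *Prdm1* to *Bcl6* FPKM within a sample was 0.162, 0.107 and 0.115 in Control and 0.115, 0.117 and 0.0892 in RANKL 4 h, which overlapped. It was 0.856, 0.483 and 1.61 in RANKL 72 h, 0.364, 0.269 and 0.301 in LPS 4 h, and 0.19, 0.206 and 0.119 in LPS 72 h. The RANKL 72 h samples had the highest ratios of all 15 and the LPS 4 h samples the next.

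The known targets of the 2 repressors were then read beside them. *Irf8*, an osteoclast repressor that Blimp1 silences, had 62.13, 75.8 and 61.65 FPKM in Control and 38.72, 37.45 and 26.44 in RANKL 72 h, a log2 difference of -0.97 (limma adjusted p 0.00146). It did not change in the other groups (-0.26 to -0.06), including LPS 4 h, where *Prdm1* was also high. Of the 2 genes listed as repressed by Blimp1 in osteoclast precursors, *Irf8* was lower than Control in RANKL 72 h and *Bcl6* (-0.19) was not counted, but against RANKL 4 h both were lower. The *Bcl6* fall between the times was alike under RANKL (-0.75) and LPS (-0.74), whereas *Prdm1* rose under RANKL (2.20) and fell under LPS (-1.59). In LPS 4 h, *Bcl6* rose, and neither was counted as changed in RANKL 4 h or LPS 72 h. The 3 genes that BCL6 represses all rose in RANKL 72 h: *Dcstamp*, needed for cell fusion, by 6.97, *Ctsk*, the bone-degrading protease, by 5.38, and *Nfatc1*, the master regulator of osteoclasts, by 2.42 on the log2 scale. *Bcl6* itself overlapped with Control in that group. In LPS 4 h, where *Bcl6* was highest, *Nfatc1* fell (-1.19, limma adjusted p 0.00148), while *Dcstamp* and *Ctsk* were not counted as changed. The median of all tested genes in LPS 4 h lay at -0.52, and 41.0% of them were counted as lower. In LPS 72 h, *Ctsk* rose and the other 2 did not change. None of the 3 changed in RANKL 4 h.

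**Figure D3:**
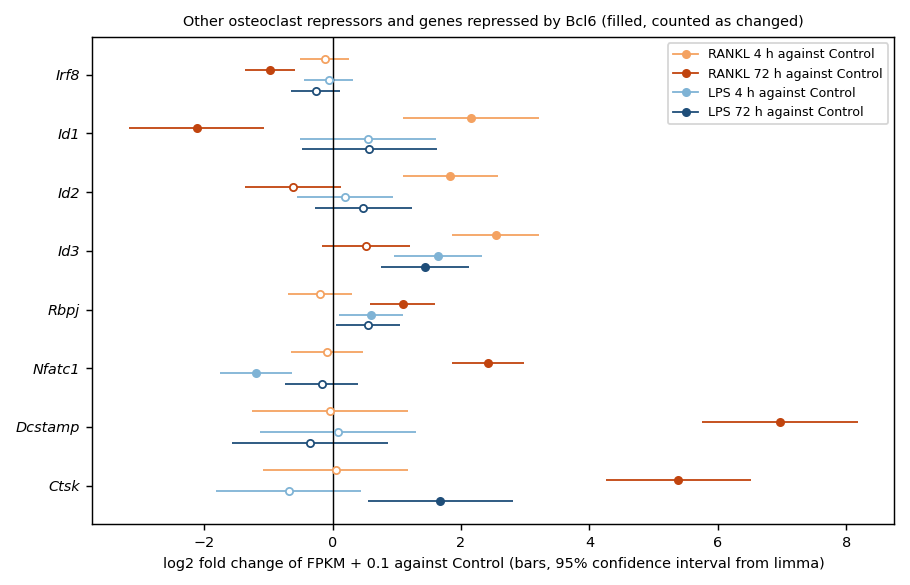
Log2 fold change of FPKM + 0.1 against Control for Irf8, the Id genes, Rbpj and 3 genes repressed by BCL6 in the 4 stimulated groups (points, limma estimates; bars, 95% confidence intervals; filled, counted as changed). Dcstamp, Ctsk and Nfatc1 lie at 6.97, 5.38 and 2.42 in RANKL 72 h, and Irf8 lies at -0.97.

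Across the 9 factors, RANKL 4 h against Control asked which lineage factors move early under the osteoclast cytokine. *Cebpa* rose and *Maf* fell, and the other 7 stayed below the thresholds. The 2 changed factors stand beside 2.56% of all tested genes changed in this comparison, and 5 of 9 had no overlap between the samples, beside 10.8% of all genes. The median log2 difference was 0.29 over the 9 and 0.00 over all genes. Of all genes 1.21% were counted as higher and 1.35% as lower. With Benjamini-Hochberg adjusted p in limma, 0 of the 9 counted, beside 0.119% of all genes. At an unadjusted p under 0.05 without the folds 7 did, beside 4.96% of all genes, and limma voom on recovered fragments counted 2 with the folds, beside 2.52%. Among 11 tested relatives of the same families, *Maff* rose and none fell. Among 5 other osteoclast repressors, 3 rose, namely *Id1* (2.15), *Id2* (1.83) and *Id3* (2.54 on the log2 scale), the Id genes encoding inhibitors of helix-loop-helix factors. *Id1* had 26.1, 9.224 and 10.56 FPKM in Control and 86.9, 64.89 and 40.45 in RANKL 4 h. After adjustment, *Id3* passed (limma adjusted p 0.00886) and *Id1* (0.165) and *Id2* (0.086) did not. None of 11 other myeloid lineage factors changed.

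RANKL 72 h against Control asked which factors differ once osteoclast genes are on. *Prdm1* rose, and *Cebpa* and *Cebpb* fell. These 3 of 9 changed factors stand beside 29.2% of all genes, and all 3 kept their call with adjusted p-values, beside 24.2% of all genes. In 5 of 9 the samples did not overlap, beside 49.1% of all genes. The 1 higher and 2 lower stand beside 20.2% and 9.04% of all genes. The median log2 difference was -0.19 over the 9 and 0.16 over all genes. Of the 11 relatives, 1 rose (*Maff*) and 5 fell (*Spib*, *Spic*, *Cebpe*, *Ddit3* and *Mafk*), and of 11 other myeloid lineage factors, 3 rose (*Klf4*, *Egr1* and *Mef2c*) and 5 fell (*Irf8*, *Irf4*, *Gfi1*, *Egr2* and *Myb*). *Myb* and *Gfi1*, factors of immature myeloid cells, fell the furthest, with log2 differences of -3.27 and -3.18. Of the 5 other repressors, *Irf8* and *Id1* (-2.11, limma adjusted p 0.0059) fell and *Rbpj*, the Notch pathway factor that restrains osteoclast formation, rose (1.09, 0.00362). In the same samples 9 of 10 osteoclast markers were higher, with sums of 1721 to 5474 FPKM against 154.8 to 279.6 in Control, where *Calcr* was at 0. Likewise 14 of 18 stromal markers were higher, at 599.2 to 2560 FPKM against 222.3 to 466.3, and 5 of 9 neutrophil markers were lower. All 6 basophil and mast cell markers, 6 of 8 B and plasma cell markers, the 3 erythroid markers tested and 3 of 5 dendritic cell markers were lower too, and *Sdc1* of the B and plasma cell list was higher. The part of these markers in the values of the 9 factors and of *Spib* was not tested.

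LPS 4 h against Control asked the same for an early inflammatory stimulus, and here 8 of 9 factors changed, beside 49.8% of all genes. *Cebpb*, *Cebpd*, *Mitf*, *Tfec*, *Bcl6* and *Prdm1* rose, and *Cebpa* and *Maf* fell. The 6 that rose stand beside 8.75% of all genes counted as higher, and the 2 that fell beside 41.0% counted as lower. In all 9 the samples did not overlap, beside 66.8% of all genes, and all 8 calls remained with adjusted p-values (48.1% of all genes). The median log2 difference was 1.12 over the 9 and -0.52 over all genes, the shift named above. With samples centred on their median gene the 8 calls also held and *Spi1* was added (1.13), so that all 9 stood beside 31.7% of all genes. The *Maf* difference shrank with centring from -1.28 to -0.71, at an unadjusted p of 0.0407 and a limma adjusted p of 0.093. Of the 11 relatives, *Spic*, *Maff* and *Mafk* rose, and *Cebpe*, *Cebpg*, *Ddit3*, *Tfeb* and *Mafg* fell. Of 11 other lineage factors, *Egr1* and *Ikzf1* rose and *Gfi1*, *Egr2*, *Myb*, *Fli1* and *Mef2c* fell, and of 5 other repressors *Id3* and *Rbpj* rose.

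LPS 72 h against Control gave 4 of 9 changed factors, beside 31.0% of all genes: *Cebpb* and *Prdm1* were higher, and *Mitf* and *Maf* lower. In 5 of 9 the samples did not overlap, beside 44.1% of all genes, and 3 calls remained with adjusted p-values (27.4% of all genes). The 2 higher and 2 lower stand beside 14.9% and 16.1%. The median log2 difference was 0.00 over the 9 and 0.08 over all genes. Without replicate 3, 6 of 9 were counted, with *Cebpa* higher (0.66) and *Cebpd* lower (-1.14) besides the 4, beside 36.6% of all genes. Of the 11 relatives, *Spic*, *Ddit3* and *Maff* rose and *Spib*, *Cebpe* and *Tfeb* fell. Of 11 other lineage factors *Runx1* (0.65) and *Egr1* rose and 7 fell, with *Myb* at -4.80 and *Gfi1* at -3.91, and of 5 other repressors *Id3* rose. In this group 9 of 9 neutrophil markers, 6 of 6 basophil and mast cell markers and 7 of 8 B and plasma cell markers were lower than in Control. The 3 erythroid markers tested and 4 of 5 dendritic cell markers were lower too, and *Sdc1* was higher. Of 18 stromal markers 3 were higher and 2 lower. Of 10 osteoclast markers *Ctsk* was higher and *Itgb3* and *Atp6v0d2* lower. The part of these markers in the values of the 9 factors and of *Spib* was not tested.

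**Figure D4:**
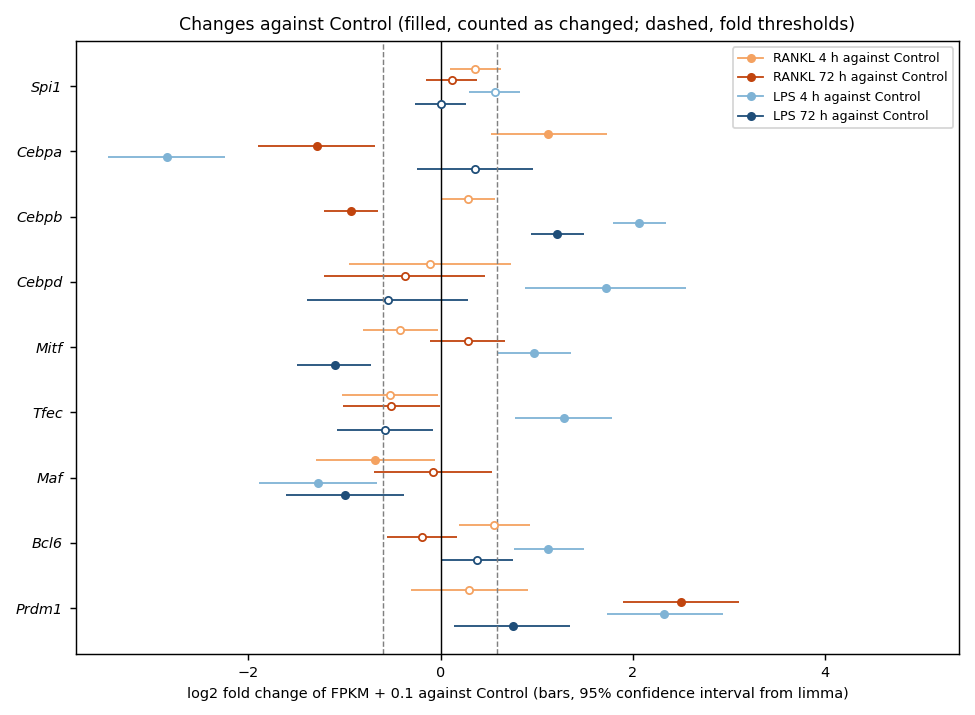
Log2 fold change of FPKM + 0.1 against Control for the 9 factors in the 4 stimulated groups, which share the same Control samples (points, limma estimates; bars, 95% confidence intervals; filled, counted as changed; dashed lines, fold thresholds). LPS 4 h has 8 filled points, LPS 72 h 4, RANKL 72 h 3 and RANKL 4 h 2.

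RANKL was also set against LPS at the same time. At 4 h, *Cebpa* was higher in RANKL by 3.97 on the log2 scale, the largest difference of the 9 in any of the 8 comparisons, and *Cebpb* (-1.79), *Cebpd* (-1.83), *Mitf* (-1.39), *Tfec* (-1.81) and *Prdm1* (-2.03) were lower. These 6 of 9 stand beside 51.8% of all genes, and 7 of 9 had samples without overlap, beside 68.2%. All 6 calls held with adjusted p-values, beside 50.0%. The 5 lower ones stand beside 9.31% of all genes and the 1 higher beside 42.5%, while the median of all genes lay at 0.53 and that of the 9 at -1.39. *Bcl6* was lower by less than the fold threshold (-0.56, limma adjusted p 0.0114) and passed it with centred samples (-1.13), as did *Spi1* (-0.77 in place of -0.21). *Maf* differed by 0.60 without a call (limma adjusted p 0.0856), was counted with the replicate number as a block, at an unadjusted p of 0.0401, and lay at 0.03 with centred samples.

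At 72 h, RANKL exceeded LPS in *Prdm1* (1.76, limma adjusted p 0.000217), *Mitf* (1.39, 3.71e-05) and *Maf* (0.92, 0.0179), and was lower in *Cebpb* (-2.14, 1.25e-07) and *Cebpa* (-1.64, 0.000368). The 5 of 9 changed factors stand beside 38.9% of all genes, and 6 of 9 had no overlap, beside 51.5%. All 5 calls held with adjusted p-values, beside 36.1%, and the 3 higher and 2 lower stand beside 25.1% and 13.8%. The median log2 difference was 0.12 over the 9 and 0.11 over all genes. All 5 calls held without LPS 72 h replicate 3, with *Prdm1* at 1.61 and *Maf* at 1.17, and *Cebpd* was then added (0.76 in place of 0.18), so that 6 of 9 stood beside 43.7% of all genes. *Tfec* and *Spi1* differed by 0.06 and 0.12, with 95% confidence intervals of -0.44 to 0.56 and -0.15 to 0.39. Of the 5 other repressors 4 were lower in RANKL (*Irf8*, *Id1*, *Id2* and *Id3*) and none higher. Of the 11 relatives, *Spib* and *Cebpe* were higher and *Spic*, *Ddit3*, *Mafg* and *Mafk* lower. All 10 osteoclast markers and 13 of 18 stromal markers were higher in RANKL, as were 7 of 9 neutrophil and precursor markers (median log2 difference 2.26 over the 9 markers), and *Dcn* was the stromal marker that was lower. Their part in these values, those of *Cebpa* and *Cebpe* among them, was not tested.

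The change between the 2 times was compared within each stimulus, in contrasts that leave the Control samples aside. From 4 h to 72 h of RANKL, *Prdm1* (2.20) and *Mitf* (0.70) rose and *Cebpa* (-2.41), *Cebpb* (-1.22) and *Bcl6* (-0.75) fell, 5 of 9 beside 28.3% of all genes, and 6 of 9 did not overlap, beside 49.0%. The 2 that rose and 3 that fell stand beside 20.1% and 8.24% of all genes, and all 5 held with adjusted p-values (23.3% of all genes). From 4 h to 72 h of LPS, *Cebpa* rose by 3.20, and *Cebpb* (-0.86), *Cebpd* (-2.27), *Mitf* (-2.08), *Tfec* (-1.86), *Bcl6* (-0.74) and *Prdm1* (-1.59) fell, 7 of 9 beside 59.3% of all genes, and 8 of 9 did not overlap, beside 68.0%. All 7 held with adjusted p-values, beside 58.1%. The 6 that fell in LPS stand beside 14.3% of all genes counted as lower and the 1 that rose beside 45.0%, while the median of all genes lay at 0.52. The *Mitf* rise in RANKL was lost with centred samples (0.48) or without RANKL 4 h replicate 1 (0.55), and the *Bcl6* fall in LPS without LPS 4 h replicate 2 (-0.58). Without LPS 72 h replicate 3 the *Cebpd* fall in LPS became -2.86. *Maf* differed by 0.61 between the RANKL times without a call (limma adjusted p 0.126), with samples that did not overlap, and was counted with the replicate number as a block at an unadjusted p of 0.0379. The change between the times itself differed between the stimuli for 5 of 9 factors, by an interaction term that passed the fold thresholds with an adjusted p, beside 49.0% of all genes. It was positive for *Cebpd*, *Mitf*, *Tfec* and *Prdm1*, beside 15.4% of all genes, and negative for *Cebpa*, beside 33.7%.

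**Figure D5:**
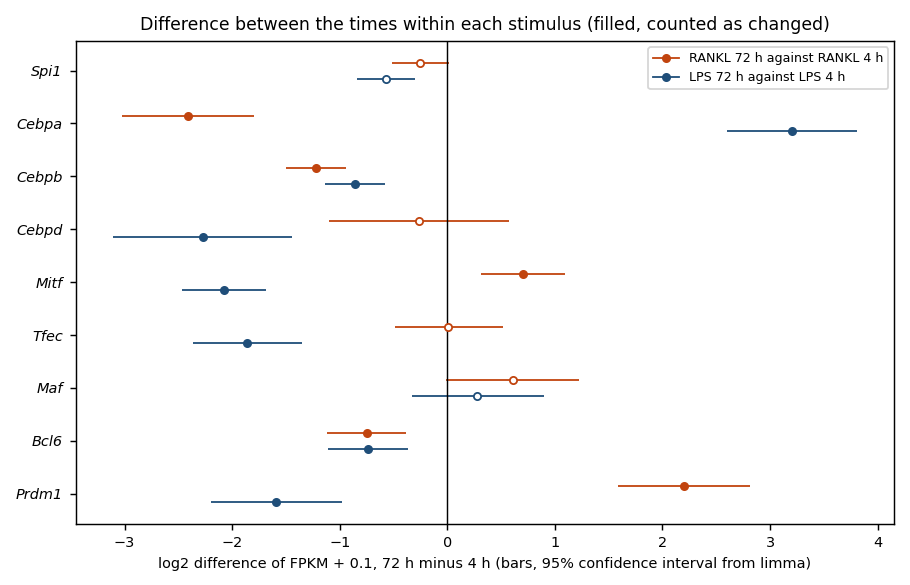
Log2 fold change of FPKM + 0.1 from 4 h to 72 h under RANKL and under LPS for the 9 factors (points, limma estimates; bars, 95% confidence intervals; filled, counted as changed). Cebpa, Mitf and Prdm1 move in opposite directions, Cebpa from 4 h to 72 h by -2.41 in RANKL and 3.20 in LPS.

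Genes with the most similar course were found by the root mean square difference of the 4 log2 differences from Control, over the 9477 other tested genes that averaged 1 FPKM or more. All 4 comparisons share the Control samples. Nearest to *Spi1* was *Sirt1*, a deacetylase gene (0.12 on the log2 scale), nearest to *Cebpb* were *Clcf1* (0.28), *Srgn* and the costimulatory gene *Cd86* (0.33 each), and nearest to *Cebpd* were *Fscn1* (0.23), *Ikzf1* and *Etv3* (0.24 each). *Tfec* was followed most closely by *Ikzf1*, which encodes the lymphoid and myeloid factor Ikaros (0.13), then by *Dtx3l* and *Parp9* (0.14 each), a gene pair that acts in interferon responses. *Mitf* was nearest to *A4galt* (0.20), *Klrk1* (0.22) and *Apobec3* (0.23), *Maf* to *St14* (0.17), *Slc39a10* (0.19) and *Mllt3* (0.20), and *Bcl6* to *Mesdc1* and *Ccdc71l* (0.20 each) and *Akap13* (0.21). *Cebpa* and *Prdm1* had no such close match, with *Tmem104* (0.35), *Lhfpl2* (0.41) and *Trib3* (0.43) nearest to *Cebpa* and *Slc44a1* (0.39), *Ext1* and *Rapgef5* (0.41 each) nearest to *Prdm1*. These 2 factors had the largest differences from Control of the 9 (-2.85 in LPS 4 h and 2.50 in RANKL 72 h). The distance is not scaled to the size of the changes, so it cannot tell a distinct course from a larger one. Among the 9 themselves, *Cebpd* and *Tfec* lay closest (0.31), then *Spi1* and *Bcl6* (0.38) and *Mitf* and *Tfec* (0.50), and *Cebpa* lay farthest from *Prdm1* (3.24) and *Cebpb* (2.54).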

How the data were processed

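The 15 RNA-seq samples of mouse BMDMs formed 5 groups of 3. Groups and replicate numbers came from the sample labels. The authors deposited FPKM per gene and sample, estimated with StringTie and Ballgown per their methods. Their processing notes name GRCm38.p4 and mm10, and the aligner was not given in the sources used here. The labels give 3 days of M-CSF before the stimulus where the methods give 4. The deposited table was analysed from its first gene to Tti2, as 1 entry is incomplete and later genes in alphabetical order were not analysed here. The FPKM of a gene came in whole multiples of a step, and fragments were recovered for 14485 of 14485 genes above 0 in at least 3 samples (100% whole within 0.01). Whether counting used strand was not stated, so reads of *Cebpb*, *Cebpd* and *Bcl6* cannot be told apart from those of genes on the opposite strand that overlap them (*Tmem189*, *Spidr* and *Gm37419*), nor can those of *Cebpa* and *Maf* from their antisense genes. Fragments of amplified libraries are not independent molecules, so fragment numbers give only the counting error.

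The 11743 genes that averaged 0.1 FPKM or more were fitted on the log2(FPKM + 0.1) scale in 1 model of the 5 groups, using limma 3.58.1 in R 4.3.3 (lmFit, eBayes with trend). The 5 groups share 1 estimate of spread for each gene. The spread of LPS 72 h replicate 3 therefore also enters the p-values of the other comparisons. A fold change is on this scale and understates changes of low genes. The call of a change, an unadjusted p under 0.05 with a fold over 1.5 or under 0.66, follows the thresholds of the study's methods, which used a count model. Because FPKM are not counts, limma was used instead. Adjusted p-values are Benjamini-Hochberg. The procedure was tested on simulated data. The 9 factors, their family relatives, other lineage factors and repressors, the target lists and the cell type markers were chosen with earlier results of these data known. Some list genes are not reported here and were left out of the counts. Genes named are the 9, the list genes that bear on them and the 3 genes nearest to each. Same-numbered samples deviated together from their group means (9486 genes) in RANKL 4 h and LPS 4 h with Control (correlations of 0.707 to 0.842 and 0.44 to 0.624), RANKL 72 h with Control (0.136 to 0.318), the 4 h groups (0.555 to 0.692) and the RANKL times (0.162 to 0.251), so a fit with the replicate block is given beside those where it changed a call. The 3 comparisons with LPS 72 h were not paired by this check. The block was nevertheless fitted over all 15 samples, and no paired fit of only the groups compared was run. Alternatives for the pseudocount, filter, scaling, samples, block, trend, adjustment, unit (limma voom on fragments) and left-out replicates are in the closing section. Promoter windows are from RefSeq on GRCm38.p6, with entries for 6 of the 9 factors, and gene positions from GENCODE M21 on GRCm38. Python 3.11.15, numpy 2.4.6, pandas 2.3.3 and matplotlib 3.10.9 were used.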

Additional observations from a re-analysis of the deposited data

Results flagged for a closer look

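The change from 4 h to 72 h differed between RANKL and LPS for 5 of the 9 factors, by an interaction term in the limma fit of all samples, counted where it passed the fold thresholds with an adjusted p under 0.05. By the same criterion 49.0% of all tested genes differed. For *Cebpa* it was -2.41 in RANKL and 3.20 in LPS on the log2 scale, a difference of -5.62 (limma adjusted p 5.04e-07). For *Prdm1* it was 2.20 in RANKL and -1.59 in LPS, a difference of 3.79 (8.74e-06). *Mitf* changed by 0.70 in RANKL and by -2.08 in LPS, with a difference of 2.78 (3.15e-06). In these 3 genes all 3 RANKL samples and all 3 LPS samples moved to opposite sides of their 4 h groups.

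*Cebpd* and *Tfec* fell between the LPS times, by log2 changes of -2.27 and -1.86, and overlapped between the RANKL times. The interaction was 2.01 for *Cebpd* (limma adjusted p 0.0075) and 1.87 for *Tfec* (0.000401). Without LPS 72 h replicate 3 the *Cebpd* change in LPS became -2.86 and its interaction 2.59, and the same 5 factors were counted, beside 53.5% of all genes. Over all tested genes the median of this interaction was -0.33.

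*Cebpb* and *Bcl6* fell between the times under both stimuli, *Cebpb* by log2 changes of -1.22 in RANKL and -0.86 in LPS and *Bcl6* by -0.75 and -0.74. Their interactions were -0.36 (limma adjusted p 0.117) and -0.01 (0.972), with 95% confidence intervals of -0.75 to 0.04 and -0.53 to 0.51. For *Maf* and *Spi1* the interaction was 0.32 each, at limma adjusted p-values of 0.528 and 0.137. With samples centred on their median gene, *Spi1* was counted too (0.75, limma adjusted p 0.0126).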

How the results depend on the processing

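Over 1872 alternative values for the 9 factors in 8 comparisons, 1817 kept their side of the threshold, 41 passed it newly and 14 no longer passed it. None turned direction as a called value. The 1817 include small uncalled differences that turned direction, such as *Spi1* in RANKL 72 h against Control (0.12, and -0.10 with centred samples). The counts of changed factors stayed within 1.5 times their reported value except for RANKL 4 h against Control, where the 2 became 0 with Benjamini-Hochberg adjusted p. Leaving out each replicate in turn gave 1 to 3 factors for that comparison, with 1 without Control replicate 1, Control replicate 2 or RANKL 4 h replicate 3. The same gave 3 to 4 for RANKL 72 h, 8 to 9 for LPS 4 h and 3 to 6 for LPS 72 h against Control, 6 to 8 and 5 to 6 for RANKL against LPS at 4 h and 72 h, and 4 to 6 and 7 to 8 between the times of RANKL and LPS. With the replicate block, *Maf* was newly counted in RANKL 4 h against LPS 4 h (0.60) and RANKL 72 h against RANKL 4 h (0.61), and the block changed no other call of the 9. These 2 *Maf* differences were also counted without LPS 72 h replicate 1 or 3, among other settings. With centred samples they were 0.03 and 0.39 and not counted. Limma voom on recovered fragments changed no call of the 9. Limits are the 3 samples a group, the spread of LPS 72 h replicate 3, and the low level of *Prdm1* in Control, from 171 fragments upward.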

Other observations

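The lists gave a few values outside the comparisons above. In RANKL 4 h, *Id3* had 81.32, 70.71 and 54.15 FPKM against 20.03, 12.85 and 6.032 in Control, and in RANKL 72 h it had 19.9, 14.89 and 15.7, while *Id1* had 4.171, 2.142 and 3.264, below every Control sample. *Rbpj* had 41.48, 59.43 and 56.87 FPKM in RANKL 72 h against 19.93, 26.79 and 27 in Control. From 4 h to 72 h of RANKL, 4 of the 5 other osteoclast repressors fell and 1 rose. *Maff* had 35.65, 22.66 and 14.27 FPKM in LPS 4 h and 2.012, 1.022 and 0.8641 in Control.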
